A study of Rattus norvegicus with 10 samples.

Results

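Myelin and oligodendrocyte genes were examined in the hippocampus of 10 male Wistar rats, 5 of the C-group, fed solid chow, and 5 of the P-group, fed powder chow, each for 8 days. The labels give the age as 4 weeks. Both groups had taken powdered feed before the experimental diet began, so the C-group is the one whose diet changed. The tissue was dissected by hand and measured on Affymetrix rat genome arrays, and all values are log2 expression values of probe sets, as summarized by the authors. The genes were fixed by name as Mbp, Mog, Mag, Cnp, Mobp, Mal, Cldn11, Ugt8 and Olig1. All 9 had a probe set that carried no other symbol, which gave 16 probe sets of the 31042 on the array.

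Oligodendrocytes wrap axons of the central nervous system in myelin, a stack of membranes rich in galactolipids and held together by a small set of abundant proteins. In rodents much of this membrane is laid down in the weeks around weaning, and in the hippocampus it is densest in the fiber tracts beside and within the pyramidal layers. Of the members, Mbp and Mobp encode basic proteins of compact myelin, Mog an immunoglobulin-like protein of its outer surface, and Mag an adhesion protein on the side facing the axon. Cnp encodes a phosphodiesterase of the uncompacted cytoplasmic channels, Mal a proteolipid of membrane rafts, and Cldn11 the claudin of the tight junctions between myelin layers. Ugt8 encodes the enzyme that makes galactosylceramide, the main glycolipid of myelin, and Olig1 a transcription factor of the oligodendrocyte lineage. In whole tissue, fewer oligodendrocytes and less myelin RNA per cell cannot be told apart.

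The summarization leaves many probe sets at a single value in every rat, and 9.36% of all probe sets had an SD above 0.01 over the 10 rats. Among the myelin probe sets, 9 of 16 did (56.2%), covering 8 of the 9 genes. The other 7 had SDs of 0.000117 to 0.000261 and are called constant here. They were the only probe set of Olig1, at 11.12 in each rat, and further probe sets of genes that also had a variable one, such as the brightest ones of Mbp, Mobp and Cldn11, at 13.70, 12.86 and 12.43. For each gene, the probe set with the highest SD over all rats is used below. Mbp had 2 variable probe sets, and its second one, with a smaller SD (0.0473 against 0.245), is given beside the first.

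One library of the C-group, C1, stood apart over the whole array, with the highest or the lowest value of the 10 rats in 75.6% of the 2904 variable probe sets, against 7.44% to 20.6% for the other 9 rats. It held 5 of the 9 variable myelin probe sets at an extreme. The results below are therefore also given without C1 where they rest on it.

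Transcription factors that drive myelin genes bind near their starts, among them Myrf, the myelin regulatory factor, and the Sox proteins. RefSeq promoter sequences of GRCr8 were given for 7 of the 9 members, with 2 starts for Mbp. The 250 bases before each start were searched on both strands for the letters CTGGCAC or CTGGTAC, taken for Myrf, for ACAAAG or ACAATG, taken for Sox proteins, and for CAGCTG or CATATG, the E-boxes that Olig proteins can bind. The Myrf letters were found before Mag, Cnp, Mal and Cldn11, in 4 of the 8 windows, and in 5.48% of 33469 promoters of the same length. The Sox letters were found before Mag, Cnp, Mobp and the second start of Mbp, again in 4 windows and in 25.3% of all promoters, with 8 copies before Mobp. The E-box letters were found before Cnp and the second start of Mbp, and in 15.2% of all promoters. No set of these letters was found before Ugt8 or the first start of Mbp. A match of letters is a description and not a binding site. Whether the letters bear on the expression values was not tested. The promoters with Myrf letters are shown because these letters are rarer than the other sets, whose words are shorter. Each is printed from -210 to -51 relative to the start, in the direction of the gene, with Myrf and Sox letters in capitals.
Mag, chr1:95291095-95291254, minus strand: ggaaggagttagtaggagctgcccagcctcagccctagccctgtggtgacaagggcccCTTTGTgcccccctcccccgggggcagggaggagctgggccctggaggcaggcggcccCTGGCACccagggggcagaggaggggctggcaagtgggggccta
Cnp, chr10:86011294-86011453, plus strand: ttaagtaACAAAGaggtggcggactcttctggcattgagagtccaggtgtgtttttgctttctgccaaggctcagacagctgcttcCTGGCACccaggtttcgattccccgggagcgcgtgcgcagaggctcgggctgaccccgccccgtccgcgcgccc
Mal, chr3:135341474-135341633, minus strand: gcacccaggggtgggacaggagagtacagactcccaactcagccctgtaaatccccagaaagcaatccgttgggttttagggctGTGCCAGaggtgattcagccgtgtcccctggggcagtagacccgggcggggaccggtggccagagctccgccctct
Cldn11, chr2:114149590-114149749, minus strand: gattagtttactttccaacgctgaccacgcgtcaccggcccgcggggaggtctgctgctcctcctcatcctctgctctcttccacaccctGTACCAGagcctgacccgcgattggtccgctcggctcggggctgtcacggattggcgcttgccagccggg
In Mag and Cnp the Myrf letters read CTGGCAC on the strand of the gene and begin at -94 and -124. In Mal and Cldn11 they lie on the other strand, and read GTGCCAG and GTACCAG as printed.

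Taken as a block, the myelin genes differed more between rats of one diet than between the diets. The mean log2 value of the 8 genes with a variable probe set was 10.61, 10.61, 10.78, 10.93 and 10.73 in C1 to C5, against 10.51, 10.73, 10.70, 10.77 and 10.88 in P1 to P5. The highest rat, C4, and the lowest, P1, were 0.42 apart, or 1.34-fold, and each diet held both high and low rats. The block averaged 10.73 ± 0.13 for C-group rats against 10.72 ± 0.14 for P-group rats (SD, n = 5 each). The difference of 0.015 had a standard error of 0.085. This is 1.01-fold, against 1.24-fold and 1.30-fold between the highest and lowest rat of the C-group and of the P-group. A range of 5 single rats tends to exceed a difference of means in any case, so these folds are only a description. The block difference was 0.045 without C1. It lay between -0.038 (without P1) and 0.056 (without P5) when each rat was left out, so its sign changed with single rats.

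**Figure D1:**
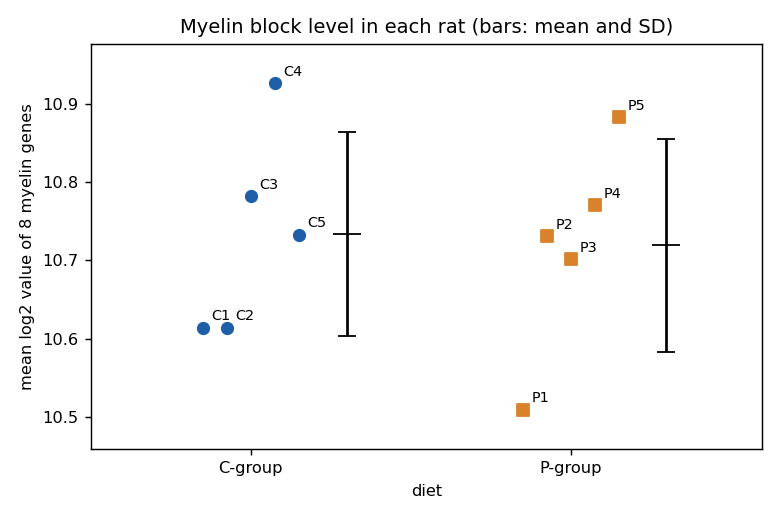
Mean log2 value of the 8 variable myelin genes (vertical axis, not starting at 0) in each rat of the C-group (blue circles) and the P-group (orange squares), with black bars for the mean and SD of 5 rats. The C-group spans 10.61 to 10.93 and the P-group 10.51 to 10.88, with C4 highest at 10.93 and P1 lowest at 10.51.

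No myelin gene separated the diets. The values of the C-group and the P-group overlapped in all 9 variable probe sets, and over all 2904 variable probe sets 0.207% did not overlap. In limma, 0 of 31042 probe sets passed an adjusted p of 0.05 (0.00%), and the adjusted p of the 9 myelin probe sets ranged from 0.927 to 0.995. At an unadjusted p under 0.05, limma passed 915 probe sets (2.95%) and 1 of the 16 myelin probe sets, a constant one of Mobp whose difference was 0.000197. Rank products called 1 of the 16 myelin probe sets, that of Mal, higher in the C-group, against 2.0% of all probe sets, and called 0 of them lower, against 0.416%. These shares are not like for like, since 56.2% of the myelin probe sets but 9.36% of all probe sets were variable. Leaving out C1 reduced the higher calls to 61 probe sets (0.197%), against 620 with it, and no myelin probe set was then called in either direction. The median difference of the 9 probe sets was 0.04 log2 units, beside 0.07 over all variable probe sets. Relative to the SD within a diet, the median size of the difference was 0.504 for the myelin probe sets and 0.569 for all variable ones.

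Among the structural proteins of compact myelin, Mobp followed the block most closely. Mobp was 11.29, 11.40, 11.60, 11.78 and 11.58 in C1 to C5, against 11.16, 11.47, 11.45, 11.50 and 11.78 in P1 to P5. The highest rats were C4 and P5 and the lowest was P1, as for the block. It averaged 11.53 ± 0.19 for the C-group and 11.47 ± 0.22 for the P-group (SD, n = 5 each). The difference was 0.06 (standard error 0.13), and it was -0.0035 without C4 and -0.019 without P1. Among the runs that left out a rat, rank products called Mobp higher in the one without P5 (FDR, its false discovery rate, 0.0471, against 0.0894 with all rats). Its correlation with the mean of the other 7 genes was 0.96 over the 10 rats (Spearman's rho 0.93). These correlations with a mean are given as a description, since the genes share the same 10 libraries and were chosen with results known.

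By its first probe set Mbp, a common marker of myelin, was 1 of 3 members with a low correlation to the others. It was 9.70, 9.99, 10.22, 10.21 and 10.40 in C1 to C5, against 10.04, 9.77, 10.29, 10.10 and 10.43 in P1 to P5. C1 and P2 were low and C5 and P5 high, so the range of 0.73 was spread over both diets. The difference was -0.02 (standard error 0.16), and it was 0.079 without C1. Its correlation with the mean of the other 7 genes was 0.33 (rho 0.37), close to that of Ugt8 (0.35, rho 0.15) and Mog (0.36, rho 0.41). Without C1 it was 0.27 for Mbp, against 0.62 for Ugt8 and 0.87 for Mog.
The second variable probe set of Mbp gave 12.82, 12.79, 12.83, 12.91 and 12.81 in C1 to C5, against 12.74, 12.84, 12.75, 12.80 and 12.82 in P1 to P5. C4 was highest and P1 lowest, as for the block, and its correlation with the other 7 genes was 0.85 (rho 0.81). The difference was 0.04 (standard error 0.03), over a range of only 0.17. Over the 10 rats the 2 probe sets of this gene had r = 0.01 and rho = 0.02 (permutation p = 0.978 and 0.973), and r was 0.26 without C1 and P2, the rats farthest from the median.

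Mal, the raft proteolipid, was the single member called by rank products. It was 12.00, 11.83, 11.83, 12.09 and 11.86 in C1 to C5, against 11.60, 11.86, 11.76, 11.81 and 12.00 in P1 to P5. P1 was the lowest rat and C4 the highest, and P5 lay close to C1. Mal averaged 11.92 ± 0.12 for the C-group and 11.81 ± 0.14 for the P-group (SD, n = 5 each). The difference was 0.12 (standard error 0.08, 95% interval -0.07 to 0.30, adjusted p = 0.927 in limma). Its FDR by rank products, which does not weigh the spread between rats, was 0.0487, and 0.0466 to 0.0478 with 4 other random draws. It was over 0.05 without each of C1 to C5, P1, P3 and P4, reaching 0.219 without C4, and under 0.05 without P2 (0.0283) or P5 (0.0339). The call also was not made with quantile normalization (0.0731).

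Mog, on the outer surface of myelin, followed Mal from rat to rat. It was 10.70, 10.35, 10.44, 10.67 and 10.47 in C1 to C5, against 10.28, 10.51, 10.39, 10.43 and 10.50 in P1 to P5. C1 and C4 were the high rats and P1 again the lowest. The difference was 0.10 (standard error 0.08), and it was 0.058 without C1.

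Cldn11, the tight junction protein, had a range of 0.82 log2 units or 1.76-fold, about that of Mag. It was 8.997, 8.91, 9.03, 9.41 and 8.87 in C1 to C5, against 8.59, 8.94, 8.94, 9.08 and 9.21 in P1 to P5. C4 and P1 were its extremes. The difference was 0.09 (standard error 0.14), and it was -0.0021 without C4 and -0.0016 without P1.

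Mag and Cnp, proteins of the axon-facing and uncompacted myelin, were the members with lower means in the C-group apart from Mbp. Mag was 10.13, 10.50, 10.88, 10.89 and 10.67 in C1 to C5, against 10.48, 10.90, 10.74, 10.95 and 10.86 in P1 to P5. C1 was the lowest rat, and without it the C-group mean was 10.74. Mag averaged 10.62 ± 0.31 for the C-group and 10.78 ± 0.19 for the P-group (SD, n = 5 each). The difference was -0.17 (standard error 0.16, 95% interval -0.53 to 0.19), and it was -0.049 without C1 and -0.25 without P1. It was not called lower by rank products (FDR 0.0825), but was without C3 (FDR 0.027) or C4 (FDR 0.0419). With each of the other rats left out it was not called. The FDR then ran from 0.0585 (without P1) to 0.407 (without P4), and was 0.212 without C1.
Cnp was 11.82, 11.93, 12.11, 12.15 and 12.03 in C1 to C5, against 11.89, 12.18, 12.07, 12.11 and 12.11 in P1 to P5. C1 and P1 were the low rats and P2 and C4 the high ones. The difference was -0.06 (standard error 0.08), and it was -0.015 without C1.

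Ugt8, the galactosylceramide synthase, had the smallest difference between the diets. It was 10.25, 10.003, 10.14, 10.22 and 9.99 in C1 to C5, against 10.04, 10.21, 9.97, 10.19 and 10.19 in P1 to P5. High and low rats were mixed in both diets. The difference was 0.0031 (standard error 0.07, 95% interval -0.16 to 0.16), and its sign changed when C1, C3, C4, P1 or P3 was left out.

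**Figure D2:**
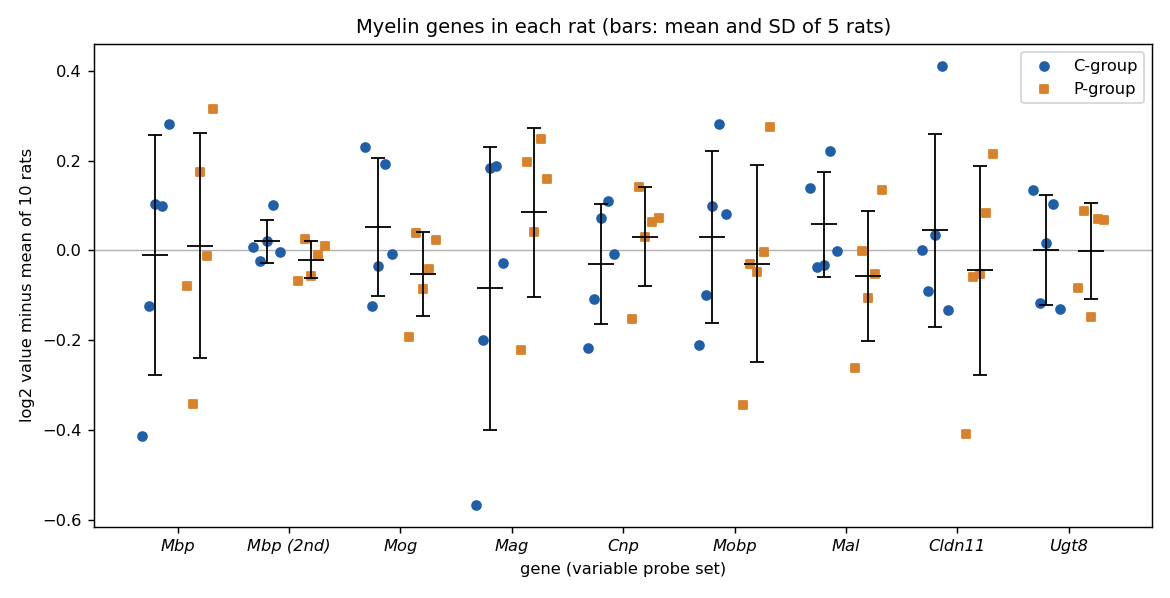
Log2 value of each variable myelin probe set in each rat minus its mean over 10 rats (vertical axis), with the C-group as blue circles left of the P-group as orange squares, replicates 1 to 5 from left to right, and black bars for the group mean and SD. The diets overlap in all 9 probe sets, and C1 is the lowest point of Mag and of the first Mbp probe set and the highest of Mog.

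**Figure D3:**
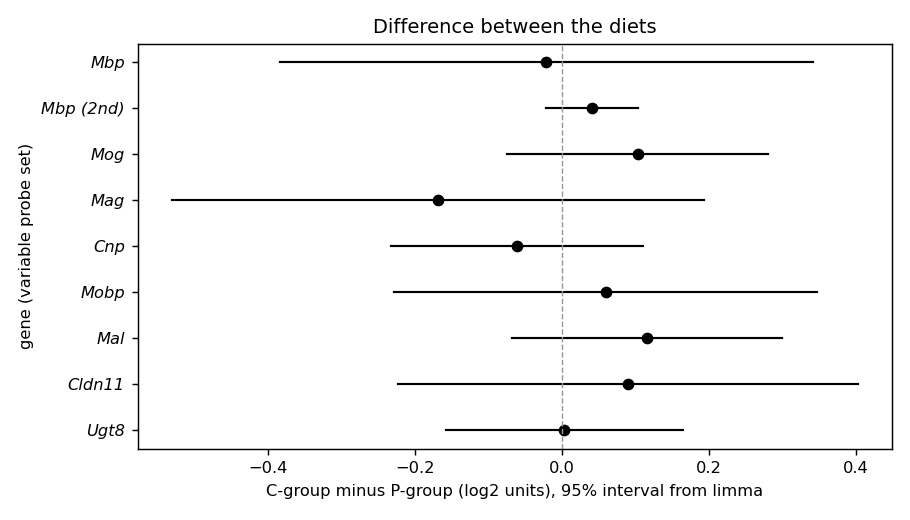
C-group minus P-group difference of each variable myelin probe set in log2 units (points), with the 95% interval from limma (lines). Every interval includes 0, with the lowest bound at -0.53 for Mag and the highest at 0.40 for Cldn11.

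Between rats, the myelin genes formed a partial block. The median Pearson's r of the 28 pairs of the 8 genes was 0.49 over the 10 rats, with 25 pairs above 0, whereas the median over all pairs of variable probe sets was 0.10. Of the pairs, 4 had an r over 0.8 (14.3%), against 8.24% of all pairs of variable probe sets. With the second Mbp probe set there were 36 pairs, and after Benjamini-Hochberg adjustment over them 9 passed 0.05 by Pearson's r and 3 by both r and Spearman's rho. Since the genes were chosen as a group with results known, these p-values are no independent evidence of a block.
The closest pair was Mag with Cnp (r = 0.96, permutation p = 3e-05, adjusted p = 0.00108; rho = 0.88, permutation p = 0.00165, adjusted p = 0.0297), with r = 0.92 without C1 and P1. The next was Mal with Mog (r = 0.89, permutation p = 0.00041, adjusted p = 0.00738; rho = 0.94, permutation p = 0.00016, adjusted p = 0.00576), with r = 0.85 without C1 and C4. Mal with the second Mbp probe set had r = 0.84 (permutation p = 0.00385, adjusted p = 0.0277; rho = 0.84, permutation p = 0.00369, adjusted p = 0.0443), with r = 0.56 without P1 and C4. The r of deviations from the diet means was 0.96, 0.87 and 0.80 for these pairs. The closeness of Mag to Cnp was not particular to the members. Outside them, Kiaa0930, Nfya and Phax had r = 0.98, 0.97 and 0.97 with Mag, and all were lowest in C1, as Mag was. Without C1 these were 0.96, 0.93 and 0.93, beside 0.95 for Mag with Cnp. Mal with Cldn11 had r = 0.86 (permutation p = 0.00294, adjusted p = 0.0277) but rho = 0.55 (permutation p = 0.105, adjusted p = 0.212) and r = 0.48 without P1 and C4, so it rested on those rats.

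Mag and Cnp were set apart from Mal and Mog over the 10 rats, with a library, C1, in which they lay on opposite sides. Mag had r = 0.08 with Mal and -0.11 with Mog, and Cnp 0.26 and 0.09. In C1, Mag and Cnp lay 0.57 and 0.22 below their means over the 10 rats, whereas Mal and Mog lay 0.14 and 0.23 above. Over the 9 rats without C1, the r of Mag was 0.59 with Mal and 0.71 with Mog, and that of Cnp was 0.67 and 0.80. The median r of the 28 pairs was then 0.70, with 27 above 0, while the median over all pairs of variable probe sets was 0.02. Leaving out each of the other rats gave medians of 0.40 to 0.66. Without C1, the 21 pairs of the 7 genes other than Mbp had r of 0.54 to 0.95, against -0.11 to 0.96 with it. The first Mbp probe set stayed apart from Mag, Cnp, Mog and Ugt8 without C1 as well (r = 0.11, 0.05, 0.19 and -0.19) and was nearest to Mobp (0.56). The second Mbp probe set did not, with r of 0.64, 0.70, 0.94 and 0.73 to the same genes without C1.

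**Figure D4:**
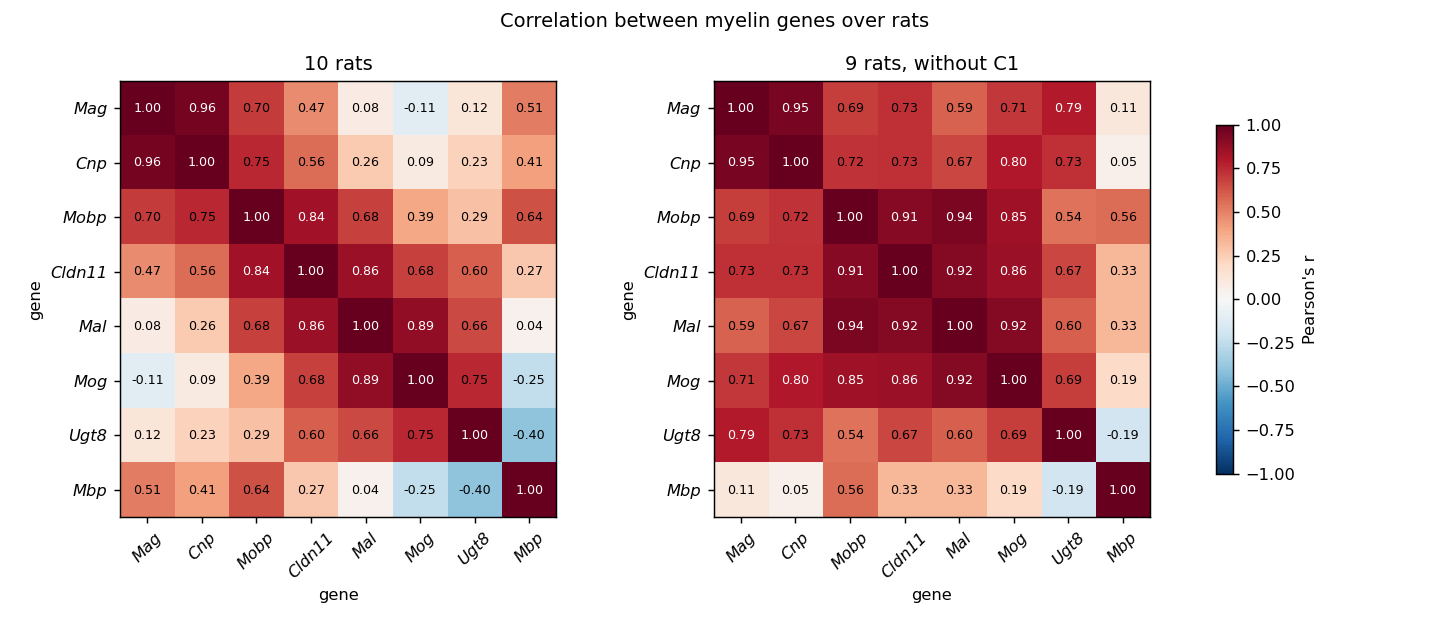
Pearson's r between the 8 variable myelin genes over 10 rats (left) and over the 9 rats without C1 (right), from blue (-1) to red (1), with both axes listing the genes. On the left Mag and Cnp are pale against Mal, Mog and Ugt8, and on the right the row of Mbp, by its first probe set, is the palest.

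**Figure D5:**
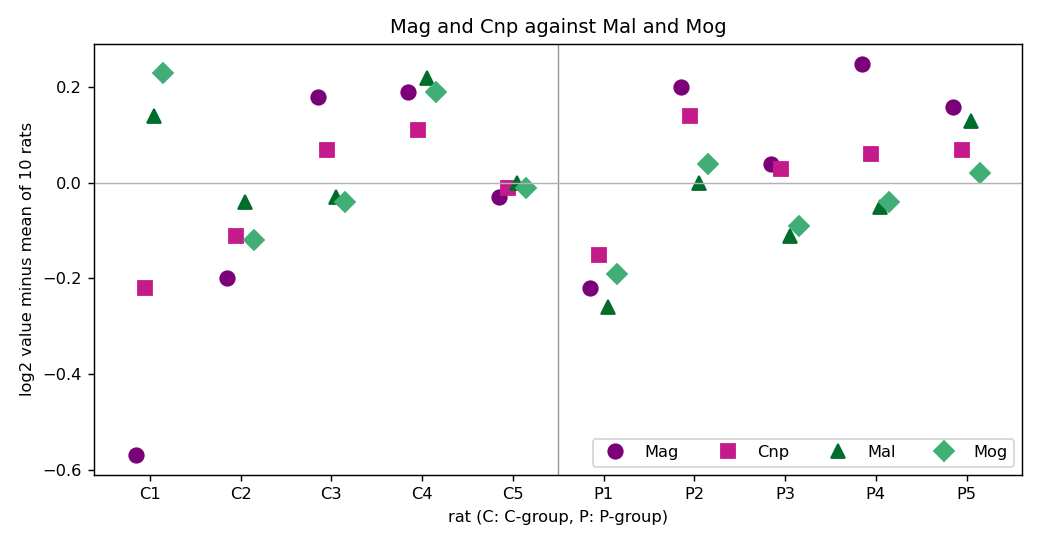
Log2 value minus the mean of 10 rats (vertical axis) for Mag and Cnp (purple circles, pink squares) and Mal and Mog (dark green triangles, light green diamonds) in each rat, with the C-group left of the P-group. In C1 Mag and Cnp lie at -0.57 and -0.22 and Mal and Mog at 0.14 and 0.23, while in P1 all 4 are low.

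Most other variable oligodendrocyte genes had a positive correlation with the members. Of a list of 24 further genes of myelinating oligodendrocytes, 21 had a probe set and 9 a variable one. Rank products called 2 of the 21 higher in the C-group and 0 lower, against 2.0% and 0.416% of all probe sets, and limma passed 0. The 21 are genes, counted by any probe set, whereas only 9.36% of all probe sets were variable. The shares are therefore not like for like. The called genes were Sirt2, a deacetylase found in myelin, at 11.29 ± 0.17 in the C-group and 11.14 ± 0.12 in the P-group (SD, n = 5 each, difference 0.15, standard error 0.09, FDR 0.0422), and Plekhb1, at 10.65 ± 0.16 in the C-group and 10.50 ± 0.21 in the P-group (SD, n = 5 each, difference 0.15, standard error 0.11, FDR 0.0444). Both had adjusted p = 0.927 in limma. Without C1 neither was called, with an FDR of 0.125 for Sirt2 and 0.114 for Plekhb1 and differences of 0.12 and 0.11. The median difference of the 9 was 0.04, the same as that of the members. Their mean level ran from 9.23 to 9.45 in the C-group and from 9.14 to 9.38 in the P-group, highest in C4 and lowest in P1.
Against the level of the member block, 7 of the 9 had a correlation above 0, with a median of 0.57, beside -0.21 over all variable probe sets. Enpp6, a choline phosphodiesterase of newly myelinating cells, was at 0.95 (rho 0.98), the gap junction gene Gjb1 at 0.74 (rho 0.59), Septin4 at 0.64 (rho 0.69), Apod at 0.59 (rho 0.59), the sulfatide synthase gene Gal3st1 at 0.57 (rho 0.51) and the sphingolipid hydroxylase gene Fa2h at 0.51 (rho 0.49). Sirt2 was at 0.36 (rho 0.32), and Ermn and Plekhb1 at -0.26 and -0.19 (rho -0.16 and -0.18). Without C1 the median was 0.73, beside -0.09 over all variable probe sets, with Septin4 at 0.92, Gjb1 at 0.89 and Gal3st1 at 0.85. Ermn and Plekhb1 were then at -0.00 and -0.05.
Of 9 measured genes of the lineage and its precursors, 2 were variable and 0 were called. Sox10 differed by 0.07 (standard error 0.06) and Pdgfra, the receptor of oligodendrocyte precursors, by 0.10 (standard error 0.08), with correlations to the block of 0.50 and -0.27 (rho 0.38 and -0.21). Without C1 these correlations were 0.70 and -0.03 (rho 0.57 and -0.08).

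Over the whole array, the 5 genes outside the members whose variable probe set was most like the block were Gamt, which encodes the last enzyme of creatine synthesis, Enpp6, Fah, Plekhh1 and Litaf, with r of 0.95, 0.95, 0.94, 0.92 and 0.91 and rho of 0.94, 0.98, 0.94, 0.84 and 0.84 over the 10 rats. Gamt averaged 9.57 ± 0.23 in the C-group and 9.61 ± 0.20 in the P-group (SD, n = 5 each), and the difference was -0.04 (standard error 0.13). The differences of Enpp6, Fah, Plekhh1 and Litaf were -0.02, -0.03, -0.07 and 0.04, with standard errors of 0.10, 0.07, 0.08 and 0.08. The 5 least like it were Lcp1, Cntnap2, Pnma8b, Apeg3 and Wdr47, with r of -0.85, -0.81, -0.80, -0.79 and -0.79 and rho of -0.87, -0.94, -0.71, -0.92 and -0.72. These were picked as extremes among all variable probe sets and carry no test. Without C1 their r was 0.91 to 0.96 and -0.92 to -0.78.

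Markers of other cell types differed in how they stood to the block. The mean of 4 variable astrocyte markers of 7 measured ran from 9.73 to 10.13 in the C-group and from 9.53 to 10.003 in the P-group, with r = -0.65 (rho -0.54) to the block, and that of 5 of 6 meningeal markers from 7.79 to 8.28 in the C-group and from 7.40 to 8.23 in the P-group, with r = -0.54 (rho -0.58). The mean of 5 of 11 neuronal markers ran from 9.35 to 9.52 in the C-group and from 9.15 to 9.42 in the P-group (r = -0.13, rho -0.18). For 4 of 7 thalamic markers it was 7.70 to 8.05 in the C-group and 7.68 to 8.13 in the P-group (r = -0.13, rho -0.30), and for 3 of 8 microglial markers 7.87 to 8.48 in the C-group and 8.05 to 8.16 in the P-group (r = -0.13, rho -0.13). The choroid plexus, whose 6 variable markers of 7 ran from 6.52 to 9.41 in the C-group and from 6.22 to 8.94 in the P-group, had r = -0.20 (rho -0.22). None of 5 endothelial markers was variable. Within most lists, single markers stood differently to the block. An r above 0 was held by 1 of 4 astrocyte, 0 of 5 meningeal, 2 of 5 neuronal and 1 of 4 thalamic markers. The same held for 2 of 3 microglial and 1 of 6 choroid plexus markers. Gfap was at 0.37 against -0.68 for Aqp4, Prox1 at 0.75 against -0.57 for Gad2, and Tcf7l2 at 0.63 against -0.47 for Slc17a6. Without C1, Gfap, Prox1 and Tcf7l2 were at 0.31, 0.82 and 0.70. Rank products called 3 of the 7 astrocyte, 6 of the 7 choroid plexus, 4 of the 6 meningeal and 2 of the 11 neuronal markers higher in the C-group, and 0 microglial or thalamic ones, against 2.0% of all probe sets. These are genes counted by any probe set, whereas only 9.36% of all probe sets were variable, so the shares are not like for like. Without C1 rank products called 2 choroid plexus markers and 1 meningeal marker higher (against 0.197% of all probe sets) and no astrocyte or neuronal ones. It then called 1 microglial marker, C1qa, lower (FDR 0.0393). Without C1 the r of the astrocyte and meningeal means to the block was -0.62 and -0.49. That of the neuronal, thalamic, microglial and choroid plexus means was then 0.01, -0.11, 0.28 and -0.06. The astrocyte, microglial, neuronal and choroid plexus means were highest in C1, as was that of the oligodendrocyte lineage genes. The part of other cell types and of C1 as a library in the myelin values was not tested.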

How the data were processed

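The authors extracted total RNA, labeled 100 ng of it for each Affymetrix rat genome array, and deposited log2 values that had been normalized and summarized with qFARMS (factor analysis for robust microarray summarization, with quantile normalization). The scanner files were not used here. No genome build is named with the values. Symbols came from the platform annotation, and the gene IDs of all 9 members matched RefSeq (GRCr8). Sept4 was matched to Septin4 by its synonym. The 57 control probe sets were left out, no columns were identical, and 0 columns belonged to other samples.

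A difference is the C-group mean minus the P-group mean. Rank products, the method of the study, took the 25 unpaired C-group against P-group differences and 100 permutations within arrays, with a threshold of 0.05 in each direction (Python 3.11.15, numpy 2.4.6, pandas 2.3.3). Linear models over all probe sets (limma 3.58.1, R 4.3.3, Benjamini-Hochberg adjustment) gave standard errors, 95% intervals and adjusted p-values. Both routines were run on simulated arrays with independent noise in each probe set. Those arrays lack variation shared by a whole library, such as that of C1, so the runs check only the code. The probe set of a gene was the annotated one with the highest SD over the 10 arrays. Correlations between members used permutation tests with 100000 resamples. Genes named are the members, the listed oligodendrocyte genes with a variable probe set (SD above 0.01), and those most like the block, the 5 with the highest and the 5 with the lowest Pearson's r among variable probe sets of 1 symbol. Alternatives were quantile normalization, median-centred arrays, the highest-mean probe set, variable probe sets only, a replicate block and leaving out each rat.

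The members, the marker lists and the motifs were chosen with earlier results of these data known, and no p is given for a score over the members. The labels list each array as a separate sample, taken here as 1 rat, and p-values of limma measure only the spread between these samples. Those of the correlations come from reshuffling the same samples. The rank products FDR comes from values permuted within arrays, so it does not weigh a difference against the spread between rats. The number of arrays limits the precision.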

Additional observations from a re-analysis of the deposited data

How the results depend on the processing

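The member differences are small against the spread between rats, and 5 rats in each group and a summarization that leaves most probe sets constant limit what could be seen. limma made 0 calls under each of its 15 alternatives, with 26 of 2904 at an unadjusted p under 0.05 when run on variable probe sets only and 50 to 1792 of 31042 in the others. Rank products made 9 higher and 0 lower calls when run on variable probe sets only, where Mal had an FDR of 1.1, against 620 and 129 over all, and 61 to 789 higher and 10 to 221 lower calls when each rat was left out. With the replicate block it called 912 higher and 338 lower, among them Mag as lower (FDR 0.0115), and it did not call Mal (FDR 0.159). The replicate block left the member differences as they were. The labels number the arrays within each diet and do not say whether equal numbers share a batch or pair. Same-numbered rats had correlations of deviations from the diet means of -0.39 to 0.48, and in 2 of 5 pairs the own number correlated best. So few pairs cannot decide whether the numbers pair the rats.

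Mog, Mag, Cnp and Mal kept the sign of their difference with each rat left out, with quantile normalization and with median-centred arrays. The replicate block cannot change a mean difference, and their highest-mean probe set is the one used. When each rat was left out, the difference ran from -0.11 to 0.079 for Mbp, from -0.019 to 0.14 for Mobp, from -0.0021 to 0.15 for Cldn11 and from -0.034 to 0.036 for Ugt8, which changes their sign. Ugt8 was at -0.0043 with quantile normalization and -0.0032 with median-centred arrays. The highest-mean probe sets of Mobp and Cldn11, which are constant, gave -2.7e-05 and -4.76e-06. The block difference ran from -0.038 to 0.056 when each rat was left out, and was 0.00035 without Mal and 0.0225 with the other variable Mbp probe set, both chosen after seeing the data. The median r between members ran from 0.40 to 0.70 when each rat was left out, also chosen then. The causes were not tested.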

Other observations

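The genes most like each single member were also listed, a choice made after the values were seen, by Pearson's r of a variable probe set over the 10 rats and with no test. Nearest to Ugt8 were Prr5l and Gal3st1 (r = 0.95 for each, rho = 0.89 and 0.87). Gal3st1 encodes the enzyme that sulfates galactosylceramide, the product of Ugt8, to sulfatide, and it averaged 7.59 ± 0.09 in the C-group and 7.57 ± 0.07 in the P-group (SD, n = 5 each). Tmem200c and Acss2 followed at r = 0.94 (rho = 0.88 for each), and Myo1d at 0.92 (rho = 0.88). Without C1 these 5 had r of 0.91 to 0.97 with Ugt8.

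Nearest to Mog was Klk6, a secreted protease of oligodendrocytes (r = 0.97, rho = 0.99), then Septin4 (r = 0.95, rho = 0.85), and both were also among the 5 nearest to Mal (r = 0.89 and 0.94, rho = 0.92 and 0.87). Klk6 differed by 0.11 between the diets with a standard error of 0.11, and Septin4 by 0.12 with a standard error of 0.07. Nearest to the second Mbp probe set were Lpar1, a lysophosphatidic acid receptor, Cryab and Fa2h (r = 0.90, 0.90 and 0.89, rho = 0.90, 0.89 and 0.85), all highest in C4 and lowest in P1. Nearest to Cldn11 were Litaf and Lpar1 (r = 0.94 and 0.87, rho = 0.84 and 0.70).

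The genes nearest to Mag were Kiaa0930, Nfya, Phax, Cap2 and Tprn (r = 0.98, 0.97, 0.97, 0.97 and 0.96, rho = 0.96, 0.88, 0.95, 0.79 and 0.94), all lowest in C1, with r of 0.92 to 0.96 without C1, and Kiaa0930 and Nfya were also among the 5 nearest to Cnp (r = 0.94 for each, rho = 0.90 and 0.72). The first Mbp probe set was nearest to Tmem268 and Nrbp2 (r = 0.93 and 0.89, rho = 0.93 and 0.89), both lowest in C1 as well, with r = 0.88 and 0.90 without it. Among 9 measured genes of cholesterol synthesis, a pathway that myelinating cells depend on, only Sqle and Cyp51 were variable. Sqle averaged 9.49 ± 0.20 in the C-group and 9.60 ± 0.14 in the P-group (SD, n = 5 each, difference -0.11, standard error 0.10), with r = 0.68 (rho = 0.78) to the block. Cyp51 averaged 10.78 ± 0.14 in the C-group and 10.74 ± 0.06 in the P-group (SD, n = 5 each, difference 0.04, standard error 0.07), with r = 0.15 (rho = 0.32) to the block. Without C1 the differences were -0.03 for Sqle and -0.01 for Cyp51, with r = 0.75 and 0.56.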
